A study of Mus musculus with 6 samples.

Results

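Transcript levels of 45 chromatin regulator genes were followed in J1 mouse embryonic stem cells that had been kept for 24 h with SB431542 or with its solvent. The genes encode DNA methyltransferases and demethylation enzymes, Polycomb subunits, histone methyltransferases and demethylases, and subunits of deacetylase and nucleosome remodelling complexes. They were taken by name, with earlier results of these data known, and were found through the RefSeq accession that the array gives for each probe. All 45 had at least 1 probe, 71 probes in all, and all 45 were among the 25898 features tested.

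J1 cells derive from the inner cell mass of strain 129S4/SvJae and are 1 cell line. The treated group received 3 µM SB431542, an inhibitor of ALK4, ALK5 and ALK7, the type I receptors of Nodal, activin and TGF-beta, and the control group received DMSO. Both groups grew without feeder cells on 0.2% gelatin, with 15% Knockout Serum Replacement and 1000 U/mL of the cytokine LIF. Each group had 3 arrays of total RNA, and nothing in the labels says that they came from separate cultures, so p-values measure no more than how these samples spread, and that spread may be technical.

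DNA methylation is copied at replication by DNMT1, which UHRF1 brings to the new strand, and is laid down anew by DNMT3A and DNMT3B, with DNMT3L as a partner that has no catalytic activity of its own. Polycomb repressive complex 2 (PRC2) methylates lysine residues of histone H3 through EZH1 or EZH2, and Polycomb repressive complex 1 (PRC1) ubiquitylates histone H2A through RING1 or RNF2. In embryonic stem cells these systems hold silent many genes of later lineages, and mouse embryonic stem cells can self-renew without PRC2 or without the DNA methyltransferases.

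Of the 45 genes, 2 rose and 3 fell with SB431542, and 40 did not pass the test (limma adjusted p under 0.05, adjusted over all 25898 features). An unadjusted p under 0.05 was reached by 12 of the 45 genes, against 27.6% of all features. These 5 genes make up 11.1% of the 45, against 12.5% of all features tested, so the share is near the background. By direction, 5.17% of all features rose and 7.37% fell. The PRC2 accessory gene Phf19 and the PRC1 gene Bmi1 rose, while the cofactor gene Dnmt3l and the demethylase genes Kdm2b and Kdm6b fell. The median change of the 45 was 0.05 on the log2 scale, against 0.02 for all features, and their median absolute change was 0.11 against 0.14.

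Of the 5 called genes 4 matched a RefSeq promoter window (build GRCm38.p6, 250 bases before to 50 bases after an annotated start), and 1 window is shown for each because the windows differ in their number of CpG dinucleotides, the sites that the DNA methyltransferases act on and that the CXXC domain of KDM2B binds. CpG dinucleotides are in capitals. The window of Phf19 lies on the minus strand at chr2:34913927-34914226, that of Bmi1 on the plus strand at chr2:18676768-18677067, that of Kdm2b on the minus strand at chr5:122900301-122900600 and that of Dnmt3l on the plus strand at chr10:78042037-78042336.
Phf19: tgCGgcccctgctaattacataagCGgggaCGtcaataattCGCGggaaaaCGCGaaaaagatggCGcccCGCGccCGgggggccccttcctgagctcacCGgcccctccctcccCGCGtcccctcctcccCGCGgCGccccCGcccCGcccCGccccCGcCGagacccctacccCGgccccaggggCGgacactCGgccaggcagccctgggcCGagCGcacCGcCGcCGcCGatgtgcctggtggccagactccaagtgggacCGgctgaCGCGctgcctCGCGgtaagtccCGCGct
Bmi1: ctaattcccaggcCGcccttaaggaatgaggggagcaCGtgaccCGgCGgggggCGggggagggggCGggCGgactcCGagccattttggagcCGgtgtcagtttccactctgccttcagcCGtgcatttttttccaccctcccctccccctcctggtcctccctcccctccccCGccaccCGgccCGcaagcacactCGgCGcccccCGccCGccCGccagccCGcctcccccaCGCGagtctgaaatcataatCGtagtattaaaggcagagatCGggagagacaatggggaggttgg
Kdm2b: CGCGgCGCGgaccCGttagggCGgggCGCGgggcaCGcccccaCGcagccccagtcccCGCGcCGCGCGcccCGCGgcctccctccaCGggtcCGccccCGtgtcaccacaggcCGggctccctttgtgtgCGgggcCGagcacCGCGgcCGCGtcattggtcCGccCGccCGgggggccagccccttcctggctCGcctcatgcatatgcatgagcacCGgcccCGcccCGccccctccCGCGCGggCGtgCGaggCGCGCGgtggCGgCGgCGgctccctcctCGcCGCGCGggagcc
Dnmt3l: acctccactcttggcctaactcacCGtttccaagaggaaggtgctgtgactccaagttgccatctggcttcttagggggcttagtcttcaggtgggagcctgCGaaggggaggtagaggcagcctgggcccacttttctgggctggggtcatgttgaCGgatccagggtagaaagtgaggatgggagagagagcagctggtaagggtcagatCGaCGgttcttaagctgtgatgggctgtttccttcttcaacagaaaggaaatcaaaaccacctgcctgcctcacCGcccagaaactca
The Phf19 window held 38 CpG dinucleotides, the Bmi1 window 23 and the Kdm2b window 49, while the Dnmt3l window held 6. Dnmt3l had 2 further windows, with 4 and 3 CpG dinucleotides, and Kdm2b had 3 further windows, with 18 to 47. Across the family 41 of 45 genes matched at least 1 window, 59 windows in all, with a median of 26 CpG dinucleotides, against 7 over all 32851 windows of the same length. Dnmt3l was the 1 gene of the 41 whose windows all lay at or below that median of 7. Cbx2, Hdac1, Kdm6b and Pcgf1 had no entry. Which start was in use in these cells was not measured.

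Short sequences bound by Smad, FOXH1 and STAT transcription factors were searched on both strands of the same windows. The Smad half-site box CAGAC was in 24 of the 59 windows (40.7%), against 49.6% of all windows. Each of the 4 called genes that matched had it in at least 1 window, but Kdm2b had 4 windows and Dnmt3l 3. The windows shown above held it for Phf19 and Bmi1 and not for Kdm2b and Dnmt3l. The share of all genes with it in at least 1 window was not computed. The palindrome GTCTAGAC was in 0 of the 59, against 0.213% of all windows. The FOXH1 motif AATNNACA was in 5 of the 59 (8.47%), against 12.2%, and in no window of a called gene. The STAT motif TTCNNNGAA was in 3 of the 59 (5.08%), against 8.30%, 1 of them a window of Dnmt3l. The median share of G and C bases was 65.7% in the 59 windows and 52.7% in all windows. The motif shares were not adjusted for this difference. The searched CAGAC and palindrome letters do not contain each other, and a match is a description of the window only.

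The 75th percentile of the signal ran from 452 in SB431542 replicate 2 to 564 in SB431542 replicate 3, and from 532 to 539 in DMSO. The share of spots well above background ran from 63.9% to 66.2%, and 0 spots were saturated. The lowest correlation across features, which are not independent replicates, was 0.997 for DMSO arrays, 0.995 for SB431542 arrays and 0.991 for arrays of different groups. Slide 1 carried all 3 control arrays and treated replicates 1 and 2, while the remaining treated array, SB431542 replicate 3, was on a second slide and scanned separately, so each result was also computed on slide 1 alone. The array farthest from its group mean was SB431542 replicate 3 for 22 of the 45 genes, against 7 for replicate 1 and 16 for replicate 2, and in DMSO it was replicate 1 for 23, against 12 and 10. All 6 Nodal and activin target genes listed as a check fell, from Nodal at -0.63 ± 0.06 (log2, SE) to Lefty1 at -9.43 ± 0.20. That list too was chosen with earlier results of these data known. All 10 embryonic stem cell markers were well above background on all arrays. Of these 4 fell (Tdgf1, Utf1, Dppa5a and Fgf4), while Pou5f1, Nanog, Sox2, Zfp42, Klf4 and Esrrb did not pass. The summed level of the 10 ran from 687 to 711 times the 75th percentile in DMSO and from 508 to 562 in SB431542. Dppa5a, the brightest, weighed most in this sum, at a mean log2 level of 8.58 in DMSO and 8.09 in SB431542. Of 12 fibroblast markers 3 fell (Col1a2, Dcn and Pdgfrb) and 1 rose (Pdgfra), and Lum and Postn were not well above background on any array. The 12 summed to 145 to 149 in DMSO and 140 to 161 in SB431542, mostly through Fn1 and Vim, which did not pass. The 6 trophoblast markers, of which Gata3 rose and Elf5 and Hand1 were not well above background on any array, summed to 1.09 to 1.19 in both groups. The 8 primitive endoderm markers, of which 1 rose (Pdgfra, which stands in both lists), summed to 1.04 to 1.2 over all 6 arrays, and their DMSO and SB431542 sums overlapped. Of 5 neuroectoderm markers 3 fell and Neurog2 stayed at background on all 6 arrays, with sums of 4.33 to 4.45 in DMSO and 3.04 to 3.34 in SB431542. The part of these cells in the results below was not tested, and in bulk RNA fewer cells of a type cannot be told apart from less RNA per cell.

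Below, a level is the log2 of a probe's processed signal minus the log2 of its array's 75th percentile, so a level of 1 is double that percentile. Levels are compared between arrays for one probe, not between probes. A change is the mean level in SB431542 minus that in DMSO, with its standard error from limma over 3 arrays per group. Where a gene had several probes, the brightest stood for it.

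**Figure D1:**
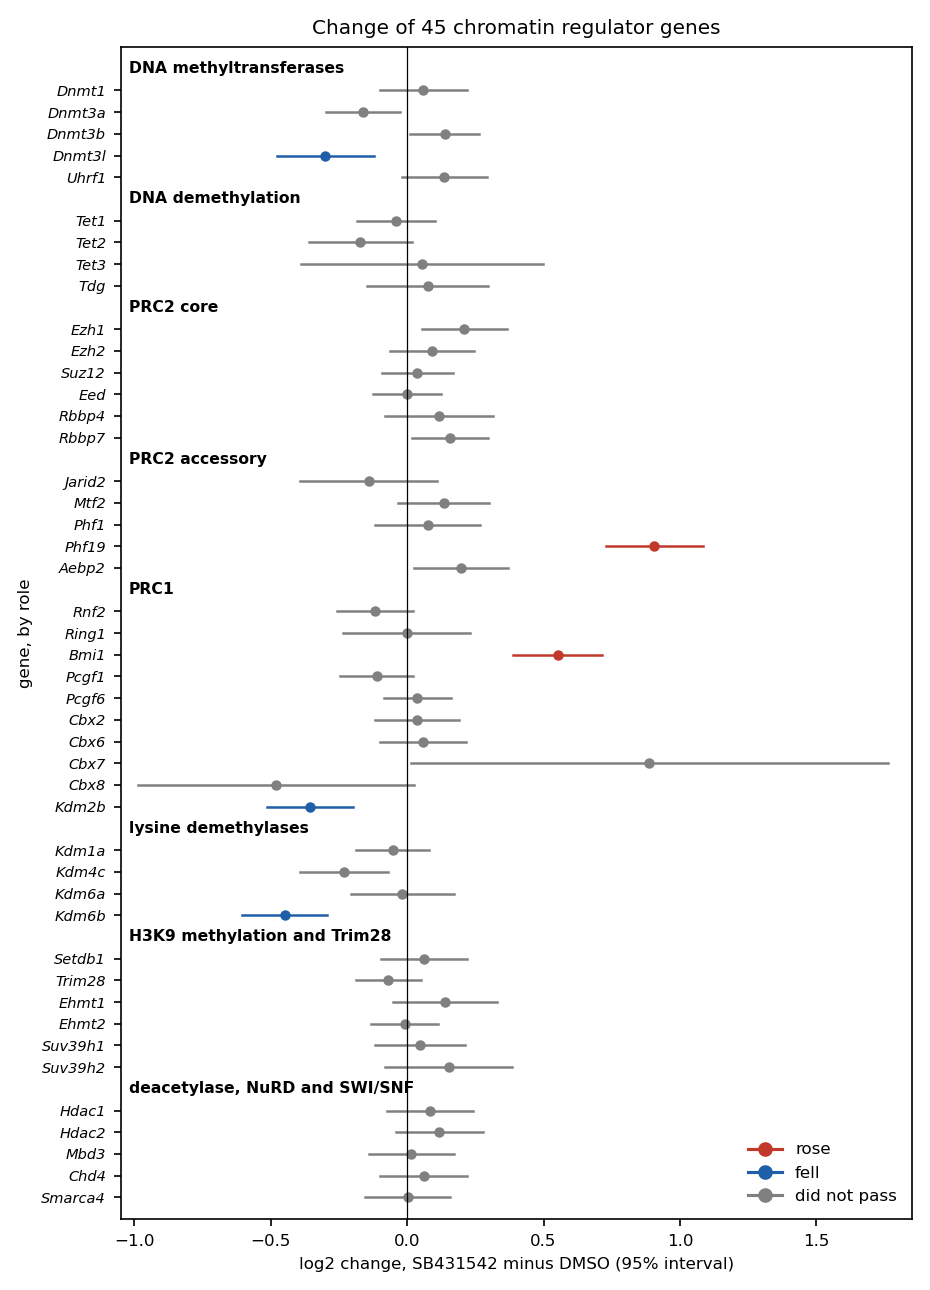
Log2 change with SB431542 relative to DMSO (horizontal axis) of the 45 genes by role, as limma estimates (points) with 95% intervals (lines) over 3 arrays per group. Phf19 and Bmi1 (red) rose, Dnmt3l, Kdm2b and Kdm6b (blue) fell, and the widest intervals belong to Cbx7, from 0.01 to 1.76, and Cbx8, from -0.98 to 0.02.

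Among the DNA methyltransferase genes, 1 of 5 fell by limma's test, and 3 had an unadjusted p under 0.05. Dnmt3l, the catalytically inactive partner of the de novo enzymes, had levels of 6.24, 6.27 and 6.28 in DMSO and 5.88, 5.91 and 6.10 in SB431542. The highest treated array, replicate 3, still lay below every control array. The change was -0.30 ± 0.07 (limma adjusted p = 0.0489), a level 1.23-fold lower. This call rests on the arrays used. Leaving out DMSO replicate 1, 2 or 3 gave a limma adjusted p of 0.131, 0.152 or 0.153, and leaving out SB431542 replicate 1 or 2 gave 0.111 or 0.125. On slide 1 alone it was 0.0152, with a change of -0.37 ± 0.05.

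The catalytic enzymes did not pass the test. Dnmt3a had levels of 1.04, 0.99 and 0.95 in DMSO and 0.85, 0.87 and 0.78 in SB431542, and Dnmt3b had levels of 6.34, 6.43 and 6.43 in DMSO and 6.53, 6.56 and 6.53 in SB431542. For both genes the groups did not overlap, lower with SB431542 for Dnmt3a and higher for Dnmt3b. The changes were -0.16 ± 0.05 for Dnmt3a (limma adjusted p = 0.120) and 0.14 ± 0.05 for Dnmt3b (limma adjusted p = 0.150). The 2 further Dnmt3b probes gave 0.11 and 0.10. The maintenance gene Dnmt1 changed by 0.06 ± 0.07, with a 95% interval from -0.10 to 0.22, and its partner Uhrf1 by 0.14 ± 0.06. Non-overlapping groups were common on these arrays, at 35.9% of all features, and were seen for 17 of the 45 genes (37.8%). The treated arrays were higher for 9 of these 17, against 18.6% of all features, and lower for 8, against 17.3%.

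None of the 4 DNA demethylation genes passed limma's test, and 0 had an unadjusted p under 0.05. The TET enzymes oxidise methylcytosine and TDG excises the products. Tet1 changed by -0.04 ± 0.06, with levels of 5.20, 5.13 and 5.12 in DMSO and 5.09, 5.06 and 5.18 in SB431542. Tet2, with the smallest p of the 4, had levels of 3.06, 3.22 and 3.27 in DMSO and 2.94, 3.08 and 3.02 in SB431542. These overlap, and the change was -0.17 ± 0.08. A dimmer Tet2 probe gave -0.25 ± 0.06, with a limma adjusted p over all probes of 0.0617. Tet3 changed by 0.05 ± 0.18 and spread from -1.11 to -0.41 within SB431542. A further Tet3 probe did not rise well above background on the 6 arrays. Tdg changed by 0.08 ± 0.09, and its dimmer probes gave 0.35 and 0.25, neither past the threshold.

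The 6 core genes of PRC2 did not pass limma's test, and 2 of them had an unadjusted p under 0.05. These are the catalytic genes Ezh1 and Ezh2, Suz12 and Eed, which the enzyme needs for its activity, and the histone-binding genes Rbbp4 and Rbbp7. Ezh1 came nearest, with levels of 2.94, 3.03 and 3.01 in DMSO and 3.20, 3.13 and 3.29 in SB431542. The groups did not overlap and the change was 0.21 ± 0.06 (limma adjusted p = 0.0917). Of its dimmer probes, 1 gave 0.18 and the dimmest -0.03. Ezh2 changed by 0.09 ± 0.06, Suz12 by 0.04 ± 0.05 and Eed by -0.00064 ± 0.05. The 95% interval of Suz12 ran from -0.09 to 0.17 and that of Eed from -0.13 to 0.13, so either change was bounded within 1.2-fold. Rbbp7 changed by 0.16 ± 0.06, with its groups apart, and Rbbp4 by 0.12 ± 0.08. The probes of Rbbp4 disagreed in size: the dimmer one gave 0.41 ± 0.08 (limma adjusted p over all probes = 0.0265), so that the mean of the probes passed the threshold (0.26, adjusted p = 0.0385) where the brightest did not.

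Among the PRC2 accessory genes, 1 of 5 rose by limma's test, and 2 had an unadjusted p under 0.05. Phf19 encodes a Polycomb-like protein that binds trimethylated lysine of histone H3 and helps bring PRC2 to its sites. Its levels were 0.03, 0.07 and 0.11 in DMSO and 1.04, 1.04 and 0.85 in SB431542. All treated arrays lay above all control arrays, by more than the spread within either group. The change was 0.91 ± 0.07 (limma adjusted p = 0.00147), or 1.87-fold with a 95% interval from 1.66 to 2.12. On slide 1 alone it was 0.97 ± 0.05. Phf19 was read by 1 probe.

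The other Polycomb-like genes did not pass. Mtf2 had levels of 4.75, 4.61 and 4.75 in DMSO and 4.86, 4.88 and 4.76 in SB431542, a change of 0.13 ± 0.07, and Phf1 changed by 0.08 ± 0.08. The difference between Phf19 and Mtf2 within an array shifted by 0.77 (log2, from -4.63 ± 0.09, SD, to -3.86 ± 0.05), and that between Phf19 and Phf1 by 0.83. These pairs are among 10 pairs of related genes chosen with the changes known, so the differences are a description. An exact permutation test gave p = 0.1 for both Phf19 pairs, the lowest that 3 arrays per group allow, so it could not pass. Of the 10 pairs, 7 had groups that did not overlap. The groups overlapped for Ezh1 and Ezh2 (shift of 0.12), Hdac2 and Hdac1 (0.03) and Suv39h1 and Suv39h2 (-0.10). Jarid2, which recruits PRC2 and modulates its activity, changed by -0.14 ± 0.10, with levels of 4.56, 4.58 and 4.24 in SB431542, the lowest in replicate 3, and 4.64, 4.61 and 4.56 in DMSO. Aebp2 changed by 0.20 ± 0.07 without passing.

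Of 10 genes of PRC1, 1 rose and 1 fell. Bmi1, also called Pcgf4, is a RING finger partner of RNF2 and RING1 in canonical PRC1. It had levels of 0.16, 0.27 and 0.32 in DMSO and 0.79, 0.86 and 0.75 in SB431542. The groups were well apart and the change was 0.55 ± 0.07 (limma adjusted p = 0.00532), or 1.47-fold with a 95% interval from 1.31 to 1.64. A dimmer probe for the same transcript gave 0.67 ± 0.08 (limma adjusted p over all probes = 0.00705), so both rose.

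Kdm2b encodes a CXXC protein that binds CpG-rich DNA without methylation and brings a variant PRC1 there. It had levels of 5.10, 4.99 and 5.03 in DMSO and 4.63, 4.78 and 4.64 in SB431542, all lower than the controls. The change was -0.36 ± 0.06 (limma adjusted p = 0.0210), a level 1.28-fold lower, and the dimmer probe gave -0.44 ± 0.06 (limma adjusted p over all probes = 0.0115). The limma adjusted p of the brightest was 0.0822 with DMSO replicate 1 left out, 0.0671 with replicate 2, 0.0809 with replicate 3 and 0.0617 with SB431542 replicate 1, with changes between -0.33 and -0.38.

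The other PCGF genes did not pass the test. Pcgf1, the partner of KDM2B, changed by -0.11 ± 0.05 and Pcgf6, of another variant PRC1, by 0.04 ± 0.05. The difference between Bmi1 and Pcgf6 within an array shifted by 0.51, from -3.07 ± 0.04 (SD) to -2.55 ± 0.05. The catalytic genes Rnf2 and Ring1 changed by -0.12 ± 0.06 and -0.0018 ± 0.09, and neither passed.

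Among the chromobox genes, which read methylated histone H3, none passed limma's test with all arrays, and 1 of the 4 had an unadjusted p under 0.05. Cbx7 had levels of -3.43, -3.67 and -3.47 in DMSO and -3.04, -3.08 and -1.79 in SB431542. All treated arrays lay above the controls, and replicate 3 lay far above the other treated arrays. The change was 0.89 ± 0.36 (limma adjusted p = 0.175). On slide 1 alone, without SB431542 replicate 3, it was 0.46 ± 0.09 and passed the threshold (limma adjusted p = 0.0388). Cbx2 changed by 0.04 ± 0.06 and Cbx6 by 0.06 ± 0.06. Cbx8 lay near background, with levels of -4.81, -5.28 and -4.87 in DMSO and -5.45, -5.13 and -5.81 in SB431542, well above background on 2 of 3 treated arrays, and its change of -0.48 ± 0.21 did not pass.

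**Figure D2:**
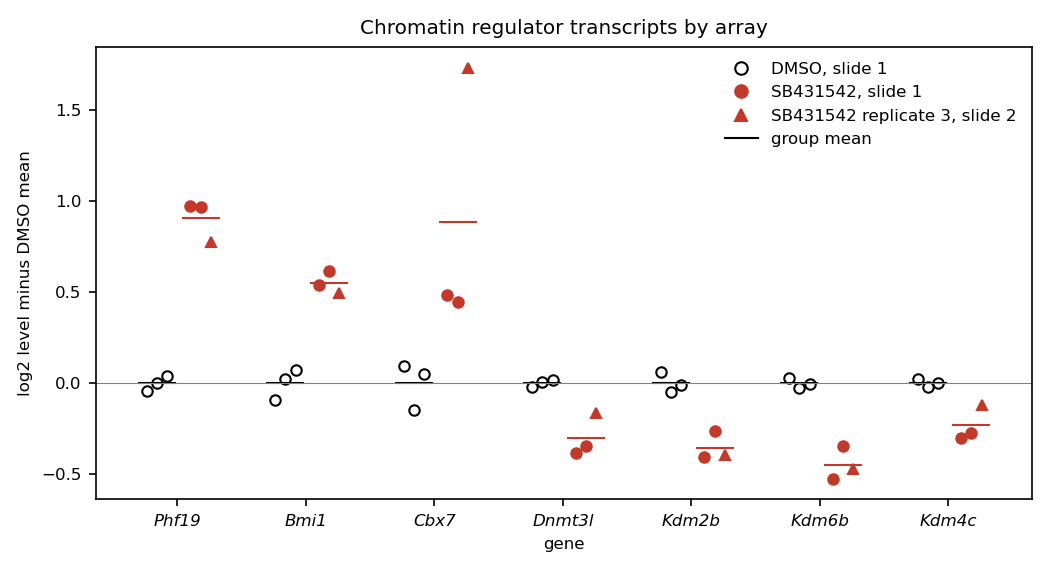
Log2 level of each array minus the mean of the DMSO arrays (vertical axis) for 7 genes, with open circles for DMSO, red circles for SB431542 on slide 1 and red triangles for SB431542 replicate 3 on slide 2. Short lines are group means. Phf19 and Bmi1 lie above and Dnmt3l, Kdm2b and Kdm6b below all control arrays, while the single high Cbx7 point is replicate 3.

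Of 4 histone demethylase genes listed by that role, 1 fell by limma's test, 2 had an unadjusted p under 0.05 and all 4 estimates were below 0. Kdm6b, also called Jmjd3, removes methyl groups that PRC2 adds. Its levels were 2.08, 2.03 and 2.05 in DMSO and 1.53, 1.71 and 1.58 in SB431542, with every treated array below every control. The change was -0.45 ± 0.06 (limma adjusted p = 0.00942), a level 1.37-fold lower. It passed the threshold with any single array left out. Kdm6a, which encodes the X-linked enzyme of the same activity, had levels of 0.45, 0.29 and 0.47 in DMSO and 0.41, 0.46 and 0.29 in SB431542, a change of -0.02 ± 0.08. The difference between Kdm6b and Kdm6a within an array was 1.65 ± 0.08 (SD) in DMSO and 1.22 ± 0.09 in SB431542. Kdm4c, an enzyme for methylated H3K9, had levels of 3.06, 3.02 and 3.04 in DMSO and 2.74, 2.77 and 2.92 in SB431542. Its groups did not overlap, and its change of -0.23 ± 0.07 missed the threshold (limma adjusted p = 0.0766). On slide 1 alone it passed, at -0.29 ± 0.05 (limma adjusted p = 0.0259). Kdm1a, the demethylase LSD1, changed by -0.05 ± 0.06.

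None of the 6 genes of H3K9 methylation and Trim28 passed limma's test, and 0 had an unadjusted p under 0.05. Trim28, the corepressor that brings SETDB1 to retroviral repeats, had levels of 6.71, 6.70 and 6.64 in DMSO and 6.60, 6.62 and 6.63 in SB431542, a change of -0.07 ± 0.05. Setdb1 changed by 0.06 ± 0.06. Of the G9a complex, Ehmt2 changed by -0.0090 ± 0.05, with a 95% interval from -0.13 to 0.11, and Ehmt1 had the smallest p of the 6, with levels of 3.86, 3.74 and 3.76 in DMSO and 3.81, 3.92 and 4.05 in SB431542. These overlap, and the change was 0.14 ± 0.08. Suv39h1 and Suv39h2, enzymes of pericentric heterochromatin, changed by 0.05 ± 0.07 and 0.15 ± 0.10.

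None of the 5 deacetylase, NuRD and SWI/SNF genes passed limma's test either, and 0 had an unadjusted p under 0.05. Hdac2 had the smallest p, with levels of -1.47, -1.49 and -1.31 in DMSO and -1.29, -1.31 and -1.32 in SB431542. These overlap, and the change was 0.12 ± 0.06. Hdac1 changed by 0.08 ± 0.06, and its 2 dimmer probes gave 0.10 and 0.11. The NuRD genes Mbd3 and Chd4 changed by 0.02 ± 0.06 and 0.06 ± 0.07, and the SWI/SNF ATPase gene Smarca4 by 0.0017 ± 0.06, with a 95% interval from -0.15 to 0.16.

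How far the 45 genes could have moved, with the called ones included, is bounded by these intervals. The whole 95% interval lay within 1.5-fold of no change for 40 of the 45 genes (88.9%), against 72.7% of all features, and within 1.2-fold for 21 (46.7%), against 26.8%. These shares depend on precision too, and the median SE was 0.065 for the 45 genes and 0.084 for all features. The 5 genes whose interval reached past 1.5-fold were Phf19, Bmi1, Kdm6b, Cbx7 and Cbx8. For the 24 genes outside the 21, with these 5 among them, a change of 1.2-fold in at least 1 direction lay inside the interval or was passed.

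**Figure D3:**
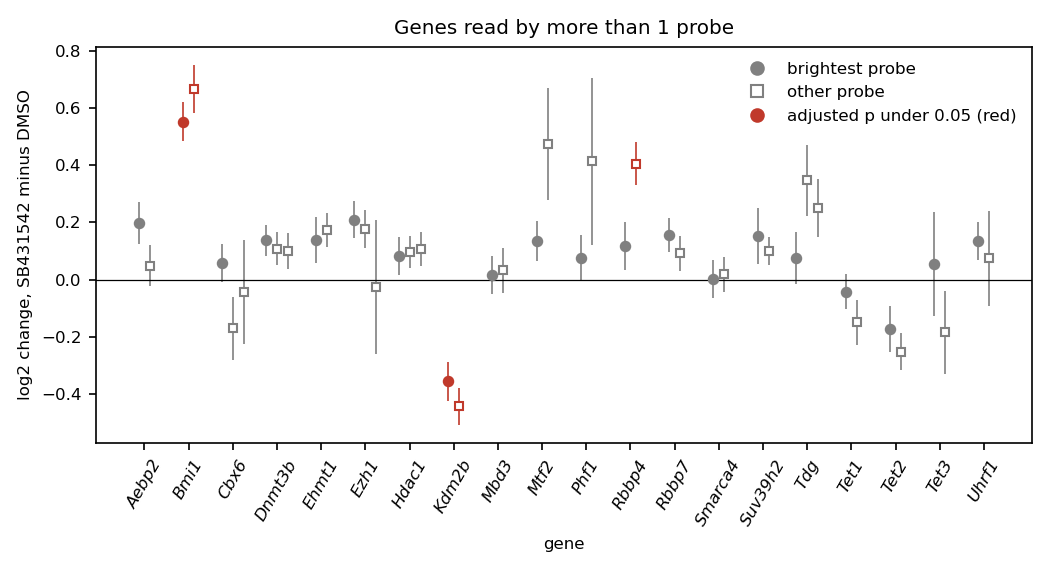
Log2 change with SB431542 relative to DMSO (vertical axis, bars are SE over 3 arrays per group) of each probe of the 20 genes with more than 1 tested probe, with filled circles for the brightest probe, open squares for the others and red for a limma adjusted p under 0.05 over all probes. Both probes of Bmi1 lie above 0 and both probes of Kdm2b below it, and for Rbbp4 the dimmer probe alone passed.

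Tested probe by probe, 10.8% of 36183 probes passed. Of the 20 genes read by more than 1 probe, 17 had probes of a single sign. The exceptions were Cbx6, Ezh1 and Tet3, none of whose probes passed the threshold. Dnmt3l, Phf19 and Kdm6b were read by 1 probe each, so their changes had no second probe.

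Genes of the wider chromatin machinery were counted the same way. Of 149 measured genes of the same complexes and families, from a list of 160, 4 rose and 10 fell (9.40%, against 12.5% of all features), with a median change of 0.01. Among those that fell were Rcor2, the CoREST subunit that partners LSD1 in embryonic stem cells (-0.64 ± 0.10, limma adjusted p = 0.0122), the remodelling gene Chd5 (-0.70 ± 0.12), Bcor, a subunit of the KDM2B form of PRC1 (-0.50 ± 0.09), Zfp57, which protects imprints from demethylation (-0.38 ± 0.07), the H3K9 demethylase gene Kdm4b (-0.33 ± 0.05) and the SWI/SNF subunit gene Smarcd3 (-0.31 ± 0.05). For Bcor the mean of the gene's probes gave a smaller fall, of -0.27. Phc2, a canonical PRC1 subunit (0.44 ± 0.08), and Smchd1, which acts in X inactivation (0.31 ± 0.05), rose. These counts rest on all arrays. With DMSO replicate 1, 2 or 3 left out, 3, 1 or 1 of the 149 passed, and with SB431542 replicate 1 or 2 left out, 7 passed. Of the 45 genes 3 (6.67%) passed with any 1 DMSO array left out, against 5.62% to 6.24% of all features. With SB431542 replicate 1 left out 3 passed, against 9.05% of all features, and with replicate 2 left out 4 (8.89%), against 8.34%. On slide 1 alone 7 of the 45 (15.6%) passed, against 11.3% of all features there.

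**Figure D4:**
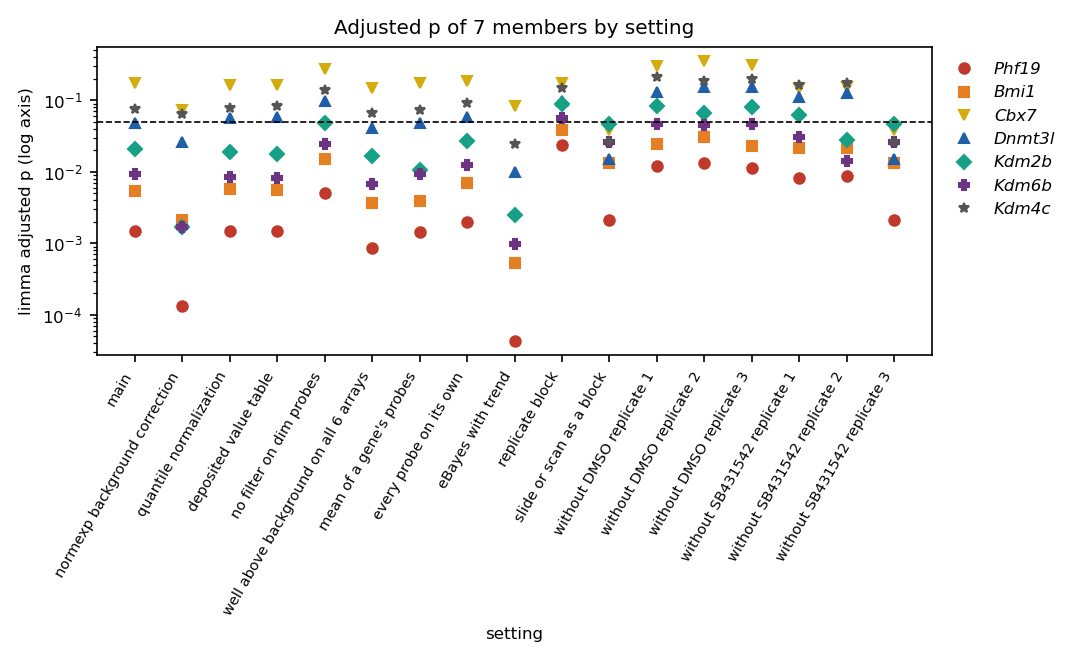
Limma adjusted p (vertical log axis) of 7 genes under the reported setting and 16 alternatives (horizontal axis), with the threshold of 0.05 as a dashed line. Phf19 and Bmi1 stay below the line at every setting shown, Kdm6b lies above it with the replicate block alone, and Dnmt3l, Kdm2b, Kdm4c and Cbx7 cross it.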

How the data were processed

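Agilent 1-colour arrays of total RNA were read with Feature Extraction (version 10.7 per the submitters' processing notes). The intensity values deposited by the authors, 1 per spot, had been corrected for background and spatial trend inside each array, per the file headers, and the deposited flags were used as a score of 0 or 1. The log2 values deposited by the authors in a further table share 1 median (5.18), of a normalization that no header or label names, and served as an alternative. The array grid uses mm9, so no gene coordinates were taken from the RefSeq table (GRCm38.p6), which named 27235 of 55681 probes by accession. A further 13 carried a symbol, and 28433 had none.

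Outlier spots were left out (81 probes lost all spots of an array), spots of a probe were averaged, and each array was scaled to the 75th percentile of its probes. A probe was kept (36183) if 3 or more of the 6 arrays had it above background, and the brightest stood for a gene. Limma 3.58.1 (lmFit and eBayes, R 4.3.3, two-sided, Benjamini-Hochberg, threshold 0.05) was applied to 25898 features, after it had been tested on simulated data. The number of arrays limits the precision. Values per array are given for genes past the threshold and for the gene with the smallest p in each role, and of the other chromatin genes the 8 with the smallest adjusted p are named. Genes beyond this were chosen after their values were seen. Members and lists were chosen with earlier results of these data known. Normexp used the spots' median signal, as the files used here list no mean signal.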

Additional observations from a re-analysis of the deposited data

How the results depend on the processing

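Over 59 named genes, 934 of 1001 values under 17 alternatives kept their side of the threshold, 60 lost a call, 7 gained one and 0 called changes turned sign. A gene not called at the main settings could not lose a call, so the 934 include many values that stayed uncalled. Phf19 and Bmi1 passed in 17 of 17, Kdm6b in 16, Kdm2b in 11 and Dnmt3l in 6. The slide block and the fit without SB431542 replicate 3 are the same fit, which enters all these counts under both names. Beside single arrays and the replicate block, Dnmt3l lost its call with quantile scaling (limma adjusted p = 0.0569), the deposited log2 table (0.0590), no filter on dim probes (0.0974) and every probe tested on its own (0.0592). Ezh1 (adjusted p = 0.0328) and Kdm4c (0.0248) passed with an intensity trend in eBayes.

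With all 6 arrays at the main settings 5 of the 45 genes passed (2 higher, 3 lower), 3247 features (1338 higher, 1909 lower) and 14 of 149 other chromatin genes (4 higher, 10 lower). No filter on dim probes gave 2092 features (787 higher) and 5 other chromatin genes (1 higher, 4 lower), where more probes were tested. The trend gave 24 other chromatin genes, 10 of them higher. An adjusted p under 0.01 left 3 of the 45 (1 lower), 1222 features (429 higher, 793 lower) and 0 other chromatin genes, of which 45 had an unadjusted p under 0.05. Leaving out each array in turn gave 3 to 7 of the 45 genes (2 to 3 higher, 1 to 4 lower), 1456 to 2926 features (535 to 1244 higher, 921 to 1682 lower) and 1 to 14 other chromatin genes (0 to 6 higher, 1 to 8 lower). The slide as a block equals the fit without SB431542 replicate 3, with 7 of the 45 and 6 other chromatin genes higher. Deviations of same-numbered arrays from their group means correlated at 0.0018, 0.07 and -0.06. These values cannot tell whether same-numbered arrays were prepared together, as noise of single probes can hide a shared deviation. The replicate block gave 2 of the 45 (both higher, against 2 higher and 3 lower without it), 1565 features (542 higher, 1023 lower) and 2 other chromatin genes (0 higher, 2 lower), with a limma adjusted p of 0.0560 for Kdm6b, 0.0885 for Kdm2b and 0.0968 for Dnmt3l. The causes of these shifts were not tested. Cbx8 lay near background, which limits its value.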

Other observations

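Subunits of the KDM2B form of PRC1, a variant complex with PCGF1 and BCOR, were gathered across both lists after their values were seen, so their counts are a description. Of 8 such genes 4 fell by limma's test, where 7.37% of all features fell: Kdm2b, Bcor (-0.50 ± 0.09), Yaf2 (-0.32 ± 0.07) and Rybp (-0.27 ± 0.06, limma adjusted p = 0.0492, and 0.0695 on slide 1 alone). YAF2 and RYBP bind RING1 or RNF2 in variant PRC1 and are shared by several of its forms. These calls rest on all arrays. With any 1 DMSO array left out none of the 4 passed (limma adjusted p from 0.0600 to 0.158), and with the replicate block Bcor alone did (0.0392). With SB431542 replicate 1 or 2 left out, or with no filter on dim probes, 1 of the 8 passed. On slide 1 alone 3 of the 8 did. The brightest Bcor probe had log2 levels of 1.93 to 2.06 in DMSO and 1.35 to 1.65 in SB431542, and the groups did not overlap. With the mean of the gene's probes the change of Bcor was smaller, at -0.27 (limma adjusted p = 0.0358). The remaining 4 did not pass: Pcgf1 and Rnf2 had changes of -0.11 and -0.12, Ring1 of -0.0018 and Bcorl1 of 0.10 ± 0.08. The median of the 8 was -0.19, against 0.02 for all features.

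Of 12 canonical PRC1 genes, gathered in the same way, 2 rose, Bmi1 and Phc2, where 5.17% of all features rose, and the median was 0.05. Phc2, a Polyhomeotic gene whose product joins PRC1 complexes to each other, had log2 levels of 2.65 to 2.81 in DMSO and 3.05 to 3.28 in SB431542. Phc2 did not pass with DMSO replicate 1, 2 or 3 left out (limma adjusted p = 0.0503, 0.0949 and 0.0927), with SB431542 replicate 1 left out (0.0556) or with the replicate block (0.0720). Its paralogs Phc1 (-0.08 ± 0.13) and Phc3 (0.12 ± 0.10) did not pass. Rnf2 and Ring1 stand in both sets, and the difference between the sets was not tested.

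The Kdm4 genes, which encode H3K9 demethylases, were also gathered after their values were seen. In all 4 measured ones the treated arrays lay below the controls, as for 17.3% of all features. Kdm4b (-0.33 ± 0.05) and the dim Kdm4d (-0.33 ± 0.07, limma adjusted p = 0.0365) fell, while Kdm4a (-0.31 ± 0.11, limma adjusted p = 0.142) and Kdm4c did not pass. With any 1 DMSO array left out, neither Kdm4b (limma adjusted p from 0.0644 to 0.0720) nor Kdm4d (0.0850 to 0.133) passed, and with the replicate block they stood at 0.0722 and 0.0974. Kdm4d changed by only -0.06 with normexp background correction (limma adjusted p = 0.629). It also lost its call with the trend (0.263), quantile scaling (0.0509), the deposited log2 table (0.0517) and no filter on dim probes (0.0764). On slide 1 alone Kdm4d passed (0.0477), and Kdm4b passed in each of these settings.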
